A study of Homo sapiens with 6 samples.

Results

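The vacuolar H+-ATPase (V-ATPase), the proton pump of lysosomes, and the Ragulator-Rag complex that docks on the lysosomal surface beside it were followed in the transcriptome of BaF3-T315I cells exposed to the histone deacetylase inhibitor I13. The members were every protein-coding gene of the deposited table whose symbol begins with Atp6v0 or Atp6v1 or is Atp6ap1, Atp6ap2, Lamtor1 to Lamtor5 or Rraga to Rragd. This rule found 29 of the 22413 genes listed. It used names only, not measured values, but the set was chosen with earlier results of these data known. By role the members were 11 genes of the V1 sector, 8 of the V0 sector, 2 accessory proteins, 5 Ragulator subunits and 3 Rag GTPases. Atp6v1c2, Atp6v1g3, Atp6v0a4 and Rragd are not analysed here.

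The mRNA of 3 control samples and 3 samples treated with 1.1 µM of I13 for 48 h was sequenced. BaF3 is a murine pro-B cell line that normally depends on interleukin-3. All 6 samples are of the BaF3-T315I line, which was stably transfected with BCR-ABL carrying the T315I mutation, so the controls hold this oncogene as well. What the control cells received, and for how long, is not given in the sources used here. The study states for its results in general that they come from independent experiments, and neither this statement nor the labels say whether the sequenced replicates were separate cultures, so the p-values measure only the spread between these samples, which may be technical. The labels name the organism as human, whereas the study calls the cells murine and the gene identifiers are those of the mouse, so all genes are treated here as murine.

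The V-ATPase is a rotary motor. Its cytosolic V1 sector hydrolyses ATP, and the rotation this drives in a central stalk turns a ring of proteolipid subunits in the membrane-embedded V0 sector, which carries protons into the lumen and keeps lysosomes acidic. Ragulator, a scaffold of small subunits anchored in the lysosomal membrane, binds the pump and holds a Rag GTPase heterodimer (RagA or RagB with RagC or RagD), which recruits the growth kinase complex mTORC1 when amino acids are plentiful.

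Expression is given as FPKM, the fragments on a gene scaled to its length and to the fragment total of the library, so that levels can be compared between genes. The control libraries held 17722950, 17632514 and 17622311 fragments for replicates 1, 2 and 3. Those of I13 held 17623236, 16762119 and 17506309. Genes with a mean of at least 0.5 FPKM were tested with limma on log2(FPKM + 0.1), which left 12163 genes and 25 of the 29 members. On this scale the fold change of genes of low FPKM is understated. The thresholds for a call were a Benjamini-Hochberg adjusted p below 0.05 over all genes tested together with a log2 fold change of 0.58 or more in either direction. Because same-numbered control and I13 samples deviated together from their group means, a second fit took the replicate number as a block, and values from it are given as blocked and the others as unblocked. Errors of fold changes are standard errors (SE) of the fit. Where 3 values of a group are given, they are those of replicates 1, 2 and 3 in this order.

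The line was checked against its markers. Csf2rb, the common beta chain of the interleukin-3 receptor family, had 286, 239 and 463 FPKM in the controls and 448, 477 and 838 FPKM after I13. Its log2 fold change was 0.83 (limma adjusted p = 0.22 unblocked and 0.0313 blocked), and that of its paralogue Csf2rb2 was 1.02 (limma adjusted p = 0.165 unblocked and 0.0312 blocked). Ptprc (CD45) had 10.6, 10.2 and 10.9 FPKM in the controls and 15.0, 14.7 and 13.5 FPKM after I13, with no overlap (limma adjusted p = 0.109 unblocked and 0.0578 blocked). Both receptor genes thus rose in the blocked fit with all samples. Il3ra, the chain specific for interleukin-3, had a log2 fold change of 0.33 (limma adjusted p = 0.408 unblocked and 0.114 blocked), and Cd79b, a B cell receptor chain, one of -0.15 (limma adjusted p = 0.824 unblocked and 0.495 blocked). The part of these markers in the values of the pump and Ragulator genes was not tested. Cd79a, the partner of Cd79b, lay between 14.1 and 27.5 FPKM in all samples, while the early B cell genes Pax5, Ebf1, Il7r, Igll1 and Vpreb1 had at most 0.107 FPKM in any sample. The receptor and CD45 of a hematopoietic line were therefore present, and several defining genes of the early B cell were at or near 0.

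After I13, most subunit genes of the pump and of its lysosomal partners did not differ from the controls beyond the spread between replicates. The accessory subunit gene Atp6ap2 was higher in all I13 samples and was the only member called, in the fit with the replicate block. The genes of the catalytic subunit A (Atp6v1a), of the proteolipid c (Atp6v0c) and of RagA (Rraga) were also higher in every I13 sample than in any control, and those of Lamtor5 and of the minor G subunit Atp6v1g2 were lower, but none of these had an adjusted p below 0.05 in the limma fits of log2(FPKM + 0.1), without or with the block. With voom on the fragments and the block, Atp6v1a and Atp6v0c did, where 12.4% of all genes had such an adjusted p. Of the 25 members tested, 16 had a log2 fold change above 0 and 8 below it, with Lamtor2 at 0.00, and their median was 0.05 beside -0.005 over all genes tested. Without the block no member was elevated and none was decreased, against 0.0329% and 0.00822% of all genes. With the block 1 member was elevated and 0 were decreased, against 1.36% and 0.526% of all genes. In the blocked fits without pair 2 or without pair 3 of the same-numbered samples, 0 of the 12163 genes had an adjusted p below 0.05 from limma (1638 and 3160 at an unadjusted p below 0.05), so that each blocked call of a member or of another gene given here was lost when either of these pairs was left out. Those fits rest on fewer samples and no gene passed them, so the loss does not set any call apart from the rest.

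Short of these thresholds, 6 of the 25 members had an unadjusted p below 0.05 from limma without the block, and with voom on the fragments and no block there were also 6. Those higher were Atp6v1a, Atp6v0c, Atp6ap2 and Rraga, 4 of 25 where 7.79% of all genes were higher at this level, and those lower were Atp6v1g2 and Lamtor4, 2 of 25 where the share of all genes was 10.8%. In 7 members the control and I13 values did not overlap. In 5 of them the I13 samples were the higher ones and in 2 the lower ones, while over all genes 9.82% and 15.4% were separated in these directions. The plot of FPKM by sample gives the level of each tested member, and in most of them the symbols of the groups are mixed.

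**Figure D1:**
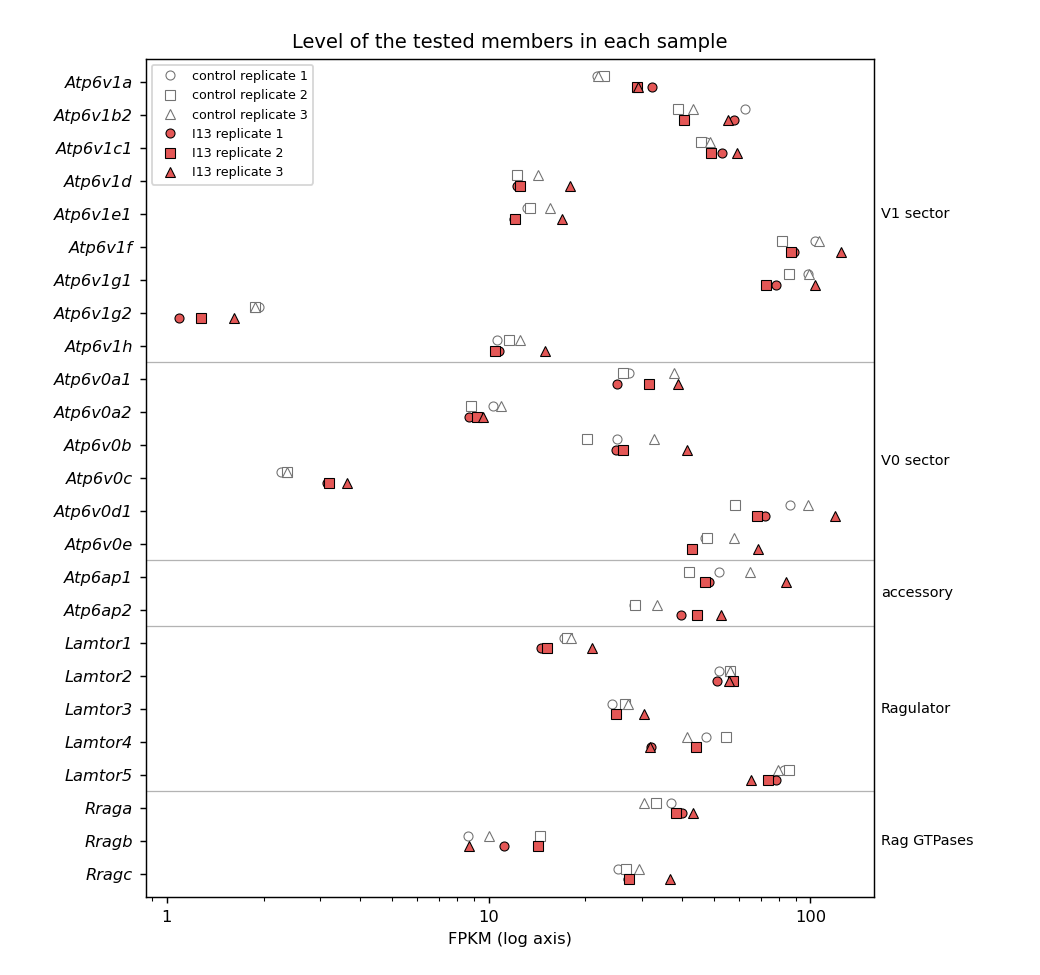
FPKM (log axis) of the 25 tested members in each of the 6 samples, ordered by role, with open symbols for the controls, filled symbols for I13 and 1 symbol shape per replicate number. The levels run from under 2 FPKM for Atp6v1g2 to about 100 FPKM for Atp6v1f, the groups are apart in 7 members, and replicate 3 (triangles) is often the highest of its group.

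The 9 tested members of the V1 sector had mean levels over all samples from 1.61 to 98.4 FPKM, and their log2 fold changes ran from -0.50 to 0.44 with a median of 0.05. Atp6v1a (ENSMUSG00000052459) encodes subunit A, which holds the catalytic nucleotide-binding sites. It was measured at 21.8, 22.8 and 21.9 FPKM in the controls and at 32.2, 28.9 and 29.1 FPKM after I13. The groups did not overlap, and the means were 22.2 ± 0.544 and 30.0 ± 1.88 FPKM (SD, n = 3 each). The log2 fold change was 0.44 (SE 0.086, limma adjusted p = 0.109 unblocked and 0.0516 blocked). Transcripts of the other nucleotide-binding subunit, B, came almost wholly from Atp6v1b2. The I13 values of this gene, 57.9, 40.5 and 55.4 FPKM, lay among control values of 62.8, 38.8 and 43.2 FPKM, a log2 fold change of 0.10 (limma adjusted p = 0.829). The A and B subunits alternate in the catalytic ring of V1, and the difference between the changes of their genes was not tested.

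Atp6v1c1 (ENSMUSG00000022295), the C subunit that joins the stationary stalks to the membrane sector, was listed at 47.3, 45.8 and 48.8 FPKM in the controls and at 53.3, 49.2 and 59.2 FPKM after I13. Every I13 sample lay above every control, though by as little as the step from 48.8 to 49.2 FPKM, and the log2 fold change of 0.19 did not pass the test (SE 0.095, limma adjusted p = 0.339) and was 0.12 without I13 replicate 3. The most abundant V1 gene, Atp6v1f of the rotating stalk, had 103, 81.6 and 106 FPKM in the controls and 88.7, 87.0 and 124 FPKM after I13. Its groups overlapped, and its log2 fold change was 0.04 (limma adjusted p = 0.93). Atp6v1d, the axle of the rotor, Atp6v1e1 of the stationary stalks and Atp6v1h, the subunit that regulates coupling of the sectors, had log2 fold changes of 0.12, -0.06 and 0.05 at levels from 10.5 to 17.9 FPKM, again with overlapping groups.

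The G subunit of the stationary stalks has a ubiquitous form, Atp6v1g1, and a form best known from neurons, Atp6v1g2. Atp6v1g1 was listed at 98.0, 86.0 and 98.8 FPKM in the controls and at 77.9, 72.6 and 103 FPKM after I13, with I13 replicate 3 above all controls and the other I13 samples below them. Atp6v1g2 (ENSMUSG00000024403) was measured at 1.93, 1.88 and 1.88 FPKM in the controls, resting on 86, 83 and 83 fragments, and at 1.09, 1.28 and 1.62 FPKM after I13, resting on 48, 54 and 71 fragments. All I13 values of the minor form lay below the controls, and its log2 fold change of -0.50 was the lowest among the tested members (SE 0.192, limma adjusted p = 0.23 unblocked and 0.161 blocked). With a pseudocount of 1 it was -0.32, and Lamtor4 was the lowest at -0.41. Lamtor4 was also the lowest without control replicate 3 (-0.52 beside -0.51) and without I13 replicate 2 (-0.58 beside -0.48). The share of Atp6v1g2 in the summed G subunit FPKM was 1.98% ± 0.139 in the controls and 1.55% ± 0.182 after I13 (SD, n = 3 each). Atp6v1g1 thus supplied nearly all G transcripts in both groups.

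The 6 tested members of the V0 sector had mean levels from 2.83 to 83.9 FPKM and log2 fold changes from -0.12 to 0.49, with a median of 0.07. Atp6v0d1, the d subunit that connects the central stalk to the ring, was the most abundant, with 86.7, 58.5 and 98.1 FPKM in the controls and 72.4, 68.3 and 119 FPKM after I13. The controls alone spanned more than the distance between the group means, and the log2 fold change was 0.08 (SE 0.263, limma adjusted p = 0.892). Atp6v0c (ENSMUSG00000024121) encodes the proteolipid c, the main building block of the ring, and was the least abundant tested V0 member. It was listed at 2.27, 2.36 and 2.36 FPKM in the controls, from 136, 141 and 141 fragments, and at 3.15, 3.19 and 3.63 FPKM after I13, from 188, 181 and 215 fragments. The values were close together within each group and did not overlap between them, with a log2 fold change of 0.49 (SE 0.125, limma adjusted p = 0.127 unblocked and 0.0808 blocked). Copies of Atp6v0c with near-identical sequence lie elsewhere in the genome, and how fragments shared with them were counted is not given in the sources used here, so its level and its change are uncertain. The other ring gene, Atp6v0b of subunit c'', had a log2 fold change of 0.23 (limma adjusted p = 0.638), with the groups overlapping, and it was 0.00 without I13 replicate 3, 0.07 without control replicate 2 and 0.41 without control replicate 3.

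The a subunit forms the proton path beside the ring, and its isoforms direct the pump to different membranes. Atp6v0a1 was listed at 27.4, 26.2 and 37.8 FPKM in the controls and at 25.1, 31.5 and 38.8 FPKM after I13. Atp6v0a2, the form of the Golgi apparatus and endosomes, was listed at 10.3, 8.81 and 10.9 FPKM in the controls and at 8.68, 9.21 and 9.64 FPKM after I13. The third isoform, a3, carries the name Tcirg1 and so falls outside the naming rule; it had 10.9, 10.2 and 11.9 FPKM in the controls and 10.9, 10.9 and 10.6 FPKM after I13. None of the 3 isoforms had groups that were apart. Atp6v0a1 made up 58.9% ± 3.11 of the summed a subunit FPKM in the controls and 61.0% ± 4.74 after I13, Atp6v0a2 made up 19.6% ± 1.63 and 17.9% ± 1.55, and Tcirg1 made up 21.5% ± 1.64 and 21.1% ± 3.19 (SD, n = 3 each). The order of the isoforms was headed by a1 in both groups, and Tcirg1 took a somewhat larger share than Atp6v0a2 in each of the 6 samples. Atp6v0e, a small membrane subunit, had a log2 fold change of -0.01 at 42.8 to 68.8 FPKM. Rnasek, which associates with V0 and also falls outside the naming rule, lay between 0.128 and 0.452 FPKM and was not tested.

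A set of isoforms known from specialised cells fell under the limit on low values and was not tested. Atp6v0d2, the d subunit of osteoclasts and macrophages, rested on 2, 0 and 14 fragments in the controls and on 1, 0 and 15 fragments after I13. Replicate 3 was the high sample in both groups, at 0.293 FPKM in the control and 0.315 FPKM after I13, and the 0 fragments of replicate 2 allow up to 0.0628 and 0.066 FPKM (3 fragments, for counting error only). Atp6v1b1, the B subunit of kidney intercalated cells, had between 0 and 4 fragments in each sample, the testis form Atp6v1e2 between 0 and 2, and Atp6v0e2 between 1 and 6. Their ubiquitous partners Atp6v0d1, Atp6v1b2, Atp6v1e1 and Atp6v0e therefore supplied at least 99.2% of the summed FPKM of their subunit in every sample.

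Atp6ap2, also known as the prorenin receptor, and Atp6ap1, also known as Ac45, are accessory proteins that sit on the V0 sector and serve in assembly of the pump. Atp6ap2 (ENSMUSG00000031007) was measured at 28.3, 28.5 and 33.3 FPKM in the controls and at 39.5, 44.4 and 52.8 FPKM after I13. The lowest I13 sample was above the highest control, and the means were 30.0 ± 2.86 and 45.6 ± 6.75 FPKM (SD, n = 3 each). The log2 fold change was 0.59 (SE 0.131, limma adjusted p = 0.113). With the replicate block the standard error was 0.073 and the adjusted p was 0.0384, so that Atp6ap2 rose in that fit. The I13 sample was the higher in each of the 3 same-numbered pairs, by 0.48, 0.64 and 0.66 on the log2 scale. In the blocked fit without pair 1, 2 or 3 its limma adjusted p was 0.0481, 0.294 and 0.0867, at log2 fold changes of 0.65, 0.57 and 0.56. The call was thus lost without pair 2 and without pair 3, where no gene at all was called.

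Atp6ap1 was the more abundant accessory gene, with 52.0, 42.0 and 64.8 FPKM in the controls and 48.4, 47.1 and 83.8 FPKM after I13. A single sample, I13 replicate 3, lay above the controls, and the log2 fold change was 0.14 (SE 0.253, limma adjusted p = 0.795). Without that sample it was -0.13. The plot of log2 fold changes sets the members side by side, and the intervals of most of them include 0 in both fits.

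**Figure D2:**
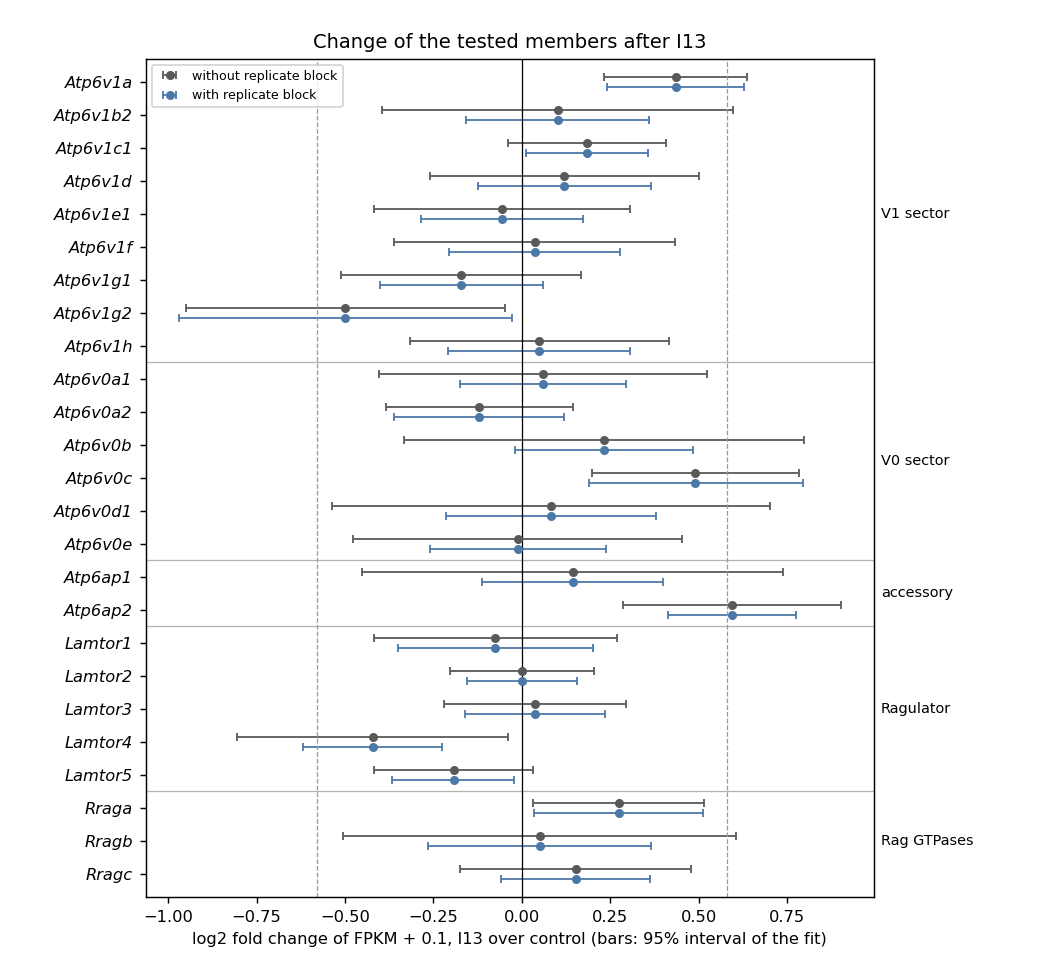
Log2 fold change of FPKM + 0.1 (I13 over control) of the 25 tested members with its 95% interval from limma, in grey without and in blue with the replicate block; dashed lines mark the threshold of 0.58 in either direction. Atp6ap2 at 0.59 is the only member past the line, and Atp6v1g2 at -0.50 lies farthest to the left.

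No Ragulator subunit had an adjusted p below 0.05 in the limma fits of log2(FPKM + 0.1). Of its 5 subunits, which had mean levels from 17.3 to 77.6 FPKM, 1 had a log2 fold change above 0 and 3 below it, with a median of -0.08. Lamtor5 (ENSMUSG00000087260), the most abundant subunit, was listed at 83.0, 85.8 and 79.3 FPKM in the controls and at 78.4, 74.0 and 65.2 FPKM after I13. Its groups did not overlap, and its log2 fold change was -0.19 (SE 0.096, limma adjusted p = 0.326 unblocked and 0.146 blocked), or -0.12 without I13 replicate 3. Lamtor4 (ENSMUSG00000050552), which pairs with Lamtor5 in the complex and is described here because of its value, was listed at 47.5, 54.5 and 41.4 FPKM in the controls and at 31.9, 44.1 and 31.7 FPKM after I13. I13 replicate 2 lay within the controls, but in each of the 3 same-numbered pairs the I13 sample was the lower, with differences of -0.57, -0.31 and -0.39 on the log2 scale. The log2 fold change of Lamtor4 was -0.42 (SE 0.162, limma adjusted p = 0.23 unblocked and 0.0557 blocked). With voom on the fragments and the block, its limma adjusted p was 0.0211, where 12.4% of all genes had one below 0.05.

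The remaining Ragulator subunits had smaller log2 fold changes. Lamtor1, whose lipid anchor ties the complex to the lysosomal membrane, was the least abundant at 17.2, 17.5 and 18.1 FPKM in the controls and 14.6, 15.2 and 21.0 FPKM after I13, so that the I13 samples lay on either side of the controls. Lamtor2 and Lamtor3, which form the inner pair and also scaffold the kinase MEK1, had log2 fold changes of 0.00 and 0.04. The interval of Lamtor2 ran from -0.20 to 0.20 and that of Lamtor3 from -0.22 to 0.29, so that changes of the size seen for Atp6ap2 lay outside both.

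Rraga (ENSMUSG00000070934) encodes RagA, the GTPase whose GTP-bound form recruits mTORC1. It was listed at 36.8, 33.1 and 30.5 FPKM in the controls and at 39.8, 38.2 and 43.3 FPKM after I13. The groups did not overlap, and the log2 fold change was 0.27 (SE 0.103, limma adjusted p = 0.223 unblocked and 0.14 blocked), or 0.16 in the blocked fit without pair 3. Its close paralogue Rragb (RagB) was the least abundant, at 8.62, 14.4 and 10 FPKM in the controls and at 11.2, 14.2 and 8.70 FPKM after I13, with the groups fully mixed. RagB took 24.7% ± 5.67 of the summed RagA and RagB FPKM in the controls and 21.9% ± 5.2 after I13 (SD, n = 3 each). Rragc, the partner RagC, had 25.2, 26.8 and 29.3 FPKM in the controls and 27.1, 27.4 and 36.7 FPKM after I13, a log2 fold change of 0.15 (limma adjusted p = 0.588), which was 0.01 without I13 replicate 3. It was higher in each same-numbered pair but not above all controls.

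Much of the spread of the members went with the replicate number. In control replicate 3, 17 of the 25 members (68.0%) were the highest of their group, and in I13 replicate 3 this was so for 19 (76.0%). Over all genes tested these shares were 31.8% and 29.6%. Replicate 3 was the highest in both groups for 17 members (68.0%), beside 16.0% of all genes. On the log2 scale the median member of replicate 3 lay 0.11 above the mean of replicates 1 and 2 in the control and 0.42 above it in I13, and the median gene of all lay at -0.01 and -0.07. Of the sum of squares of the members, 59.4% lay between replicate numbers on 2 degrees of freedom, 28.9% between control and I13 on 1, and 11.6% was left, while over all genes it was 44.2%, 27.7% and 28.1%. What set replicate 3 apart was not tested.

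This spread shows in the differences within same-numbered pairs. The median member was -0.08 in pair 1, 0.03 in pair 2 and 0.25 in pair 3 (log2, I13 minus control), and 9, 15 and 19 of the 25 members were higher in I13. The same medians over all genes were 0.02, 0.00 and -0.05. Without I13 replicate 3 the median log2 fold change of the members was -0.09 and 9 of 25 were above 0. Without control replicate 1 or control replicate 2 it was -0.007 and -0.012, each with 12 of 25 above 0, so the sign of the median depended on single samples. In the fit with the block and without pair 3, 12 of 25 were above 0 and none was called. Members higher in every pair were Atp6v1a, Atp6v1c1, Atp6v0c, Atp6ap2, Rraga and Rragc, and members lower in every pair were Atp6v1g2, Lamtor4 and Lamtor5. The shares of all genes higher or lower in every pair were not computed, so these members have no background to be read against.

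**Figure D3:**
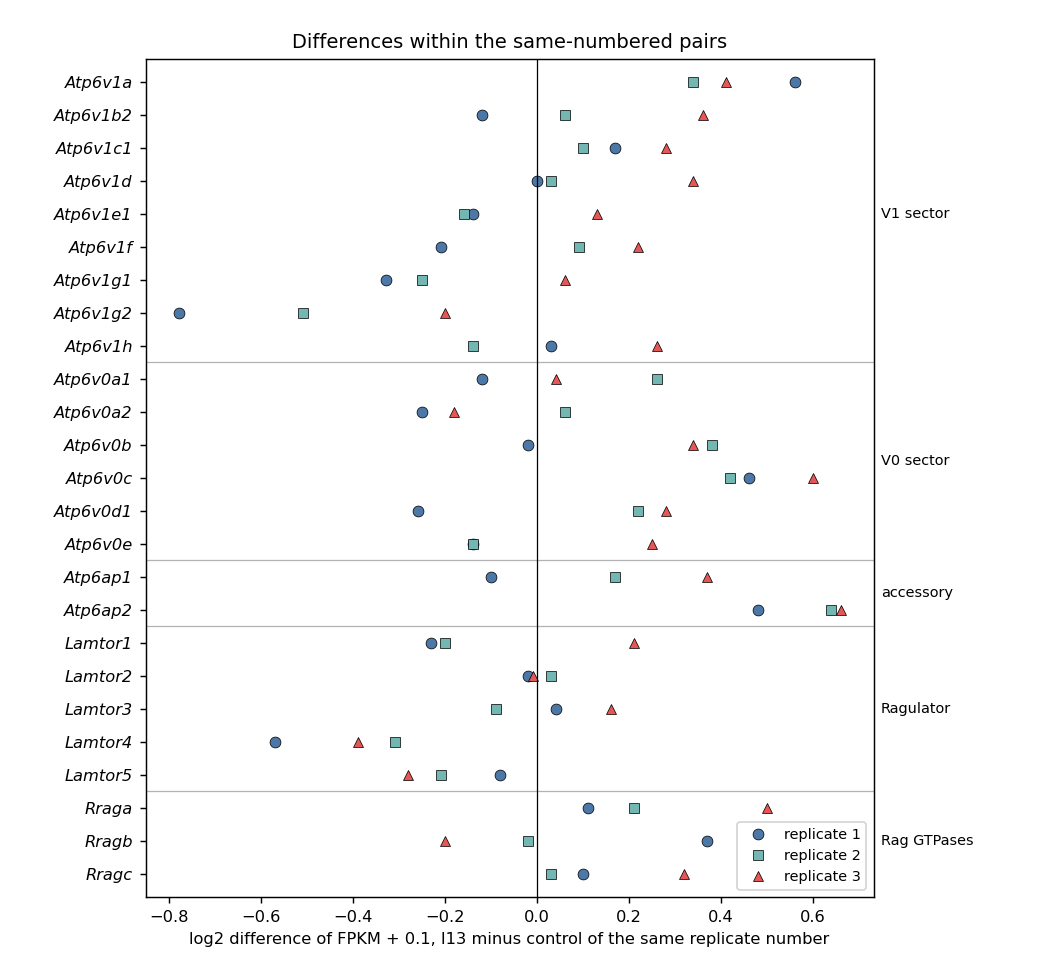
Log2 difference of FPKM + 0.1, I13 minus the control of the same replicate number, for each of the 25 tested members and for replicates 1, 2 and 3 (circles, squares and triangles). In 6 members all 3 differences are above 0 and in 3 all are below it, and the triangles of pair 3 lie mostly to the right. The matching shares over all genes were not computed.

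Markers of other cells were read beside this pattern. The mast cell list (5 of 6 genes in the table) summed to 16.1, 13.1 and 90.9 FPKM in the controls and to 11.2, 16.2 and 51.3 FPKM after I13, so that it too was highest in replicate 3 of both groups. Its most abundant gene was the protease Cma1, with Cpa3 between 1.2 and 9.39 FPKM, while Mcpt4, Tpsb2 and Fcer1a were at or near 0. The macrophage list (5 of 6 genes in the table) summed to 43.5, 23.0 and 46.4 FPKM in the controls and to 78.8, 53.0 and 87.2 FPKM after I13, and its most abundant gene was Adgre1 (F4/80), with Csf1r and Mrc1 at or near 0. Its 3 tested genes, Adgre1, Lyz2 and Cd68, all had a log2 fold change above 0. In 2 of them the I13 values lay above the controls without overlap, where 9.82% of all genes were separated in this direction. Adgre1 was listed at 37.6, 18.1 and 40.1 FPKM in the controls and at 72.1, 44.1 and 76.7 FPKM after I13, a log2 fold change of 1.05 (limma adjusted p = 0.18 unblocked and 0.0308 blocked). Lyz2 (lysozyme) was listed at 1.41, 1.77 and 1.47 FPKM in the controls and at 2.33, 4.08 and 2.04 FPKM after I13, a log2 fold change of 0.77 (limma adjusted p = 0.202 unblocked and 0.0796 blocked). Cd68, a lysosomal membrane protein of macrophages, was between 3.02 and 8.36 FPKM. Its groups overlapped, and its log2 fold change was 0.47 (limma adjusted p = 0.404 unblocked and 0.158 blocked). The fibroblast genes Col1a1 and Thy1 and the osteoclast gene Oscar did not exceed 0.13 FPKM. The part of these markers in the values of the members was not tested, and in bulk samples more cells of a type and more RNA per cell cannot be told apart.

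Genes that act on the pump or on the Rag GTPases were described from lists, without a test of any list. These lists were chosen with earlier results of these data known. In none of these lists did a gene have an adjusted p below 0.05 from limma without the block. Of 13 tested genes for assembly and regulation of the V-ATPase, 10 were higher after I13, with a median log2 fold change of 0.25, and 4 were higher and 0 lower at an unadjusted p below 0.05, beside 7.79% and 10.8% of all genes. Dmxl1 and Dmxl2, rabconnectin proteins that promote joining of V1 to V0, were among these. Dmxl1 was at 2.97, 2.89 and 3.18 FPKM in the controls and at 4.59, 4.36 and 3.88 FPKM after I13, a log2 fold change of 0.49 (limma adjusted p = 0.122). Dmxl2 was at 4.47, 4.96 and 5.39 FPKM in the controls and at 7.54, 6.72 and 6.36 FPKM after I13, a log2 fold change of 0.47 (limma adjusted p = 0.127). In both genes the groups did not overlap, and replicate 3 was not the highest I13 sample.

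On the nutrient-sensing side the list medians lay below 0. At an unadjusted p below 0.05 from limma without the block, the list with GATOR1 had 2 genes higher and 2 lower, and that with GATOR2 had 1 and 2. The mTORC1 and TSC list had 0 higher and 3 lower, and BORC had 0 and 2, beside 7.79% and 10.8% of all genes. Of the 11 genes of GATOR1, KICSTOR, the folliculin complex and SLC38A9, 3 were higher and the median was -0.14, with Nprl2, a GATOR1 subunit, at 12.3 ± 0.976 and 9.77 ± 0.324 FPKM and Fnip1, a partner of folliculin, at 7.49 ± 0.8 and 10.6 ± 0.44 FPKM in control and I13 (SD, n = 3 each). Of 9 tested genes of GATOR2 and the amino acid sensors, 4 were higher and the median was -0.17. Here Gatsl3, the arginine sensor CASTOR1, had a log2 fold change of 0.76 (limma adjusted p = 0.155) and Sec13, which also serves in vesicle coats and nuclear pores, one of -0.33 (limma adjusted p = 0.142). Of 9 genes of mTORC1 and its inhibitor TSC, 3 were higher, with a median of -0.12, and Rptor (raptor, the subunit that binds the Rag GTPases) and Tsc2 had log2 fold changes of -0.40 and -0.33 (limma adjusted p = 0.123 and 0.137). The BORC complex, which binds Ragulator and positions lysosomes, had 3 of 7 tested genes higher and a median of -0.17. Kxd1 was at 15.4 ± 1.32 FPKM in the controls and 10.9 ± 0.852 FPKM after I13 (SD, n = 3 each). Its log2 fold change was -0.49 (limma adjusted p = 0.113 unblocked and 0.0468 blocked), and Borcs7 had a log2 fold change of -0.50 (limma adjusted p = 0.157). The transcription factors that act on lysosomal genes, Tfeb, Tfe3 and Mitf, had log2 fold changes of -0.31, -0.05 and 0.12, none with an unadjusted p below 0.05.

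The enzymes and membrane proteins of the lysosome were set beside its pump. Of 31 tested genes for lysosomal enzymes and membrane proteins, 27 were higher after I13, with a median log2 fold change of 0.42. Without the block, 0 had an adjusted p below 0.05 from limma. With the block, 11 had an adjusted p below 0.05, all higher, where 2.99% of all genes had one (1.75% higher and 1.24% lower). With the block 9 were also elevated, where 1.36% of all genes were. None of these results held without pair 2 or without pair 3, where no gene at all passed. Of the 25 members, 1 had such an adjusted p. Lgmn (legumain, a lysosomal cysteine protease) was at 57.9, 70.8 and 83.8 FPKM in the controls and at 172, 253 and 208 FPKM after I13, a log2 fold change of 1.57 (limma adjusted p = 0.086 unblocked and 0.0144 blocked). Lamp2, a membrane glycoprotein of the lysosome, was at 8.14 ± 1.66 FPKM in the controls and 13 ± 1.69 FPKM after I13 (SD, n = 3 each), and its log2 fold change was 0.68 (limma adjusted p = 0.12 unblocked and 0.0384 blocked). The lysosomal list shared the replicate pattern of the pump, with replicate 3 the highest in the control for 29 of 31 genes and in I13 for 28. The difference between this list and the members was not tested. This list and that of the mitochondrial ATP synthase were also chosen with earlier results of these data known.

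The mitochondrial ATP synthase, a related rotary enzyme that makes ATP, was set beside the V-ATPase. Of its 15 genes, 1 was higher after I13 and the median log2 fold change was -0.29, with 9 lower at an unadjusted p below 0.05 (10.8% of all genes). At an adjusted p below 0.05 from limma, 0 were lower without the block. With the block 3 were lower at this level (1.24% of all genes), though none without pair 2 or without pair 3, where no gene at all passed. Atp5c1, its central stalk subunit, was at 203, 207 and 180 FPKM in the controls and at 140, 141 and 133 FPKM after I13, a log2 fold change of -0.51 (limma adjusted p = 0.0989 unblocked and 0.0384 blocked). Atp5o, of its stationary stalk, had a log2 fold change of -0.42 (limma adjusted p = 0.106 unblocked and 0.0498 blocked). Replicate 3 was the highest in both groups for 1 of the 15 genes, beside 17 of the 25 members. The plot of the lists shows the medians of the V1 and V0 sectors between those of these sets.

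**Figure D4:**
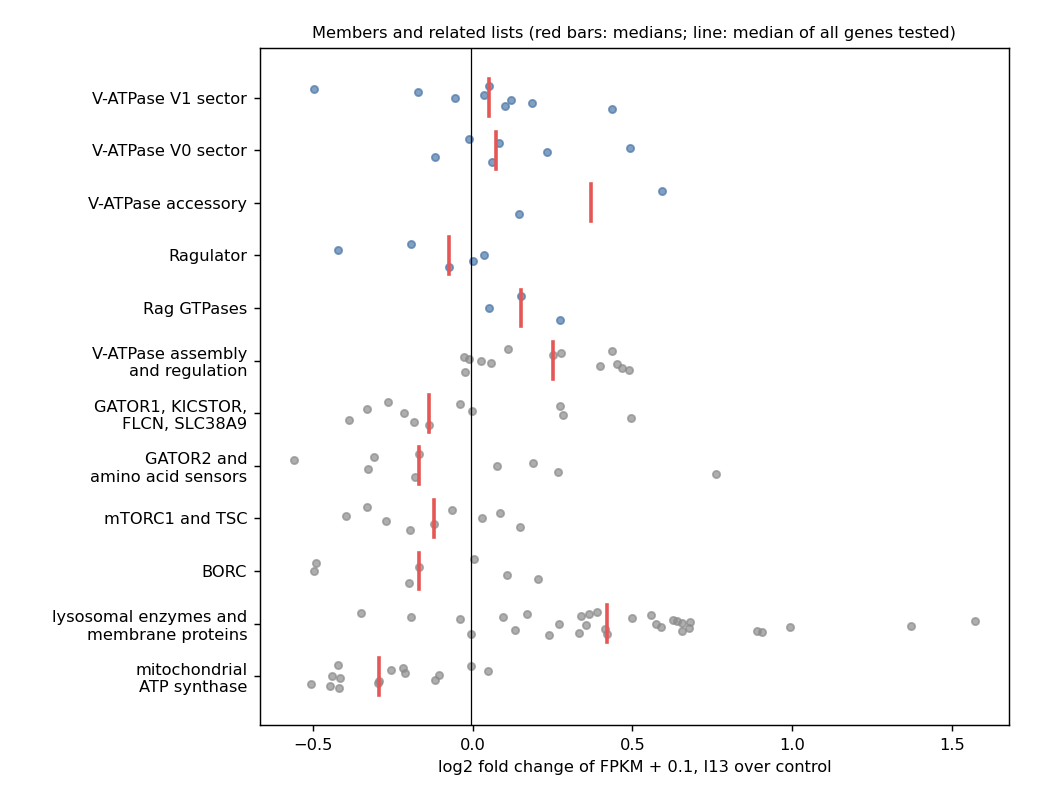
Log2 fold change of FPKM + 0.1 (I13 over control) of each tested gene in the 5 roles of the members (blue) and in 7 related lists (grey), with the median of each as a red bar and the median of all genes tested as a black line. The medians run from -0.29 for the mitochondrial ATP synthase to 0.42 for lysosomal enzymes and membrane proteins, with the pump sectors at 0.05 and 0.07.

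With voom weights on the recovered fragments together with the block, 4 of the 25 members had an adjusted p below 0.05, where 12.4% of all genes had one. These were Atp6ap2, Atp6v1a and Atp6v0c on the higher side, with 0.0047, 0.0126 and 0.048, and Lamtor4 on the lower side, with 0.0211, and of these Atp6ap2 alone also passed the threshold of 0.58.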

How the data were processed

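The authors deposited FPKM values of single samples, 3 control and 3 I13, in 1 table of 22413 genes, with no scaling between samples stated. The submitters' processing notes name Trimmomatic, HISAT2, Cufflinks, HTSeq and hg38, without versions or roles. Coordinates and sequences are left out, since a mouse genome was not used here.

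Each FPKM was turned back into whole fragments (100.0% of genes, tolerance 0.03 fragments), which gave the library totals, with 99.5% on listed genes. Tests used limma 3.58.1 in R 4.3.3 (eBayes with trend), with voom on these fragments and the replicate block as alternatives. Deviations of same-numbered samples from their group means correlated across genes at 0.15, 0.30 and 0.22, and those of differently numbered samples at -0.26 to 0.05, so the numbers, which come from the labels, were taken to pair the samples. The code was tested on simulated data. Figures were drawn with matplotlib 3.10.9.

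The members and lists were chosen with earlier results of these data known. Values in each sample are given for members past an adjusted p of 0.05 in either fit, members whose groups do not overlap, the most and least abundant of each role and tested paralogues. From each list of related genes the 2 of lowest p are named, and Tcirg1, and markers are named by their level.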

Additional observations from a re-analysis of the deposited data

How the results depend on the processing

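The number of members elevated, 0, was 1 with the replicate block and 1 with voom and the block, each time Atp6ap2. Without the block it stayed 0 when any 1 sample was left out. With the block it was 1 without pair 1, again Atp6ap2, and 0 without pair 2 or without pair 3. The block changed no other call of a member. Over all genes, 4 elevated and 1 decreased became 166 and 64 with the block and 375 and 128 with voom and the block. They became 2 and 0 in each of 3 settings (quantile normalization, median-ratio scaling, pseudocount 0.01), and 3 genes were decreased without the filter and with eBayes without trend. Leaving out any 1 sample, without the block, gave 0 elevated and 0 decreased genes, from fewer samples. The blocked fit, with 166 and 64 from all samples, gave 78 and 5 without pair 1. It gave 0 and 0 without pair 2 and without pair 3. Lamtor2, at 0.00, had no direction to keep and ran from -0.037 to 0.048 over the 21 alternatives. Of 504 comparisons of the other 24 members, 462 kept direction and side of the threshold, 3 brought Atp6ap2 past it, 38 in 12 members turned direction, and Atp6v0b without I13 replicate 3 was at 0. For Atp6v0e these included median-ratio scaling (0.001), TPM (0.018) and quantile normalization (0.004). All others left out a sample or a pair, and the log2 fold changes then ran from -0.126 to 0.301 for Atp6ap1, -0.094 to 0.225 for Atp6v0a1, -0.171 to 0.254 for Atp6v0d1, -0.238 to 0.104 for Atp6v0e, -0.04 to 0.306 for Atp6v1b2, -0.055 to 0.214 for Atp6v1d, -0.218 to 0.027 for Atp6v1e1, -0.13 to 0.159 for Atp6v1f, -0.114 to 0.147 for Atp6v1h, -0.238 to 0.021 for Lamtor1, -0.056 to 0.101 for Lamtor3 and -0.124 to 0.259 for Rragb. None of these 12 was called. With the FPKM rescaled to TPM, 18 of 25 members were higher and their median was 0.08, beside 0.02 over all genes. Apart from the fewer samples, the cause was not tested.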
